A study of Mus musculus with 6 samples.

Results

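Retinoic acid is made from vitamin A inside cells, and the genes of its synthesis, its receptors and its breakdown were followed here in the fast-twitch muscle of mice with a Cre-driven deletion of Akt1 and Akt2 in muscle. The genes examined are 9 of the 24411 in the deposited table: Aldh1a1, Aldh1a2, Aldh1a3 and Aldh1a7 of the retinaldehyde dehydrogenase family, the retinoic acid receptors Rara, Rarb and Rarg, the retinoid X receptor Rxra, and the retinoic acid hydroxylase Cyp26b1. They were picked by symbol with the genotype difference in these 6 libraries already known, so their differences are given as a description, and a call on any of them is no evidence. RNA came from whole EDL, the extensor digitorum longus of the lower hindlimb and a muscle of mostly fast fibres, of C57BL/6J mice at 50 weeks of age. The 3 mAktDKO mice carry the floxed Akt1 and Akt2 alleles together with Cre recombinase knocked in downstream of the Mlc1f promoter (labelled Mlc1f-Cre:Akt1/2-floxed), and the 3 control floxed mice carry the label Akt1/2-floxed, with no Cre named. Mlc1f is a myosin light chain of fast fibres, so the deletion depends on the fibre and cell type, and how much of either gene the other cells of the muscle keep was not measured here. No label states that each library is a separate animal. The libraries are called mice here, and p-values cover the spread between these libraries only.

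In the retinoid pathway, retinol is first oxidised reversibly to retinaldehyde, and retinaldehyde dehydrogenases then oxidise it irreversibly to retinoic acid. Retinoic acid binds receptors of the RAR family, which sit on DNA as pairs with RXR proteins, often at direct repeats of a short hexamer, and recruit coactivators in place of corepressors. Enzymes of the CYP26 family hydroxylate retinoic acid and end its action. In skeletal muscle, RXR proteins also pair with thyroid hormone receptors, PPARs and other nuclear receptors.

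The total of the estimated counts lay between 13738795 and 15445523 per mouse. Levels are given in CPM, the counts of a gene relative to the library total scaled by the TMM method of edgeR, and on this scale the floor of 3 counts lay between 0.18 and 0.227 CPM. This floor covers counting error only. All 9 genes passed the filter on low counts, as did 12892 of the 24411 genes. Akt2 had 51.3, 49.1 and 52.7 CPM in mAktDKO mice 1 to 3 and 172.1, 133.1 and 142.6 CPM in the controls, numbered 2 to 4 as in the deposited table (log2 fold change -1.55, adjusted p = 0.000923 by edgeR's quasi-likelihood test). For Akt1 the log2 fold change was -0.25 (adjusted p = 0.114 by the same test), and -0.11 with counts scaled by library totals alone. The counts per gene do not show the floxed exons on their own. The 10 fast fibre markers, among them Myh4 and Ckm, were present in every mouse, at a summed 115400 to 143800 CPM over the 6 mice. The library of control mouse 2 had the lowest summed level of the 10 genes marking fibro-adipogenic progenitors and fibroblasts, at 7537 CPM against 16090 to 22070 CPM in the other 5 mice.

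A stretch of the coding sequences of Aldh1a1 and Aldh1a7 is shown because reads from it fit both genes. It runs over coding bases 746 to 865 of each gene in GENCODE M21 transcripts, counted from 1 at the start codon, and capitals mark the 2 bases that differ.
Aldh1a1: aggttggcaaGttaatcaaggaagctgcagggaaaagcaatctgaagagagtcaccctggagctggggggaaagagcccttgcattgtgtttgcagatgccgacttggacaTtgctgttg
Aldh1a7: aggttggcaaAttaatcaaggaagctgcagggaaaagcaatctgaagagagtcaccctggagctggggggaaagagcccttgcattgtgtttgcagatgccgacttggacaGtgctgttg
The run of 100 identical bases in its middle, from 757 to 856, is longer than a read of 37 bases. Over their whole coding sequences of 1503 bases, Aldh1a1 and Aldh1a7 were identical at 1377 positions (91.6%), against 65.5% to 67.7% for the other pairs of the family. They shared 225 runs of 37 bases, 9.03% of those in Aldh1a1 transcripts and 11.1% of those in Aldh1a7 transcripts. No run of this length was shared with Aldh1a2, Aldh1a3 or any other Aldh gene.

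Aldh1a1 was lower in all 3 mAktDKO mice. It encodes the cytosolic retinaldehyde dehydrogenase that also clears aldehydes from lipid peroxidation, and lies on the plus strand of chromosome 19, from 20492715 to 20643465 in mm10 (ENSMUSG00000053279.8). The level was 24.9, 23.4 and 24.8 CPM in mAktDKO mice 1 to 3 and 63.3, 58.5 and 54.6 CPM in control mice 2 to 4. The 3 mAktDKO values lay below all 3 control values, and the mAktDKO mice differed little among themselves, with a coefficient of variation of 3.29% against 7.46% in the control mice. Averages of 24.3 ± 0.80 and 58.8 ± 4.39 CPM (SD, n = 3 each) gave a log2 fold change of -1.27 (standard error 0.087).

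When each mouse was left out in turn, the log2 fold change of Aldh1a1 ranged from -1.33 to -1.22. By edgeR's quasi-likelihood test, 3 of the 12892 genes (0.0233%) were at an adjusted p under 0.01, namely Akt2, Grb14 and Aldh1a1. Without mAktDKO mouse 1, 2 or 3, no gene passed this threshold, and 8 did without control mouse 2. With DESeq2, the tool of the study, there were 338 of the 17357 genes with a p-value, not all of which had an adjusted p. As this contrast chose Aldh1a1, nothing is read from its place among them. In whole muscle, fewer cells that express a gene cannot be told apart from less RNA of it in each cell. The summed level of the 10 fast fibre markers lay between 115400 and 129600 CPM in the mAktDKO mice and between 133000 and 143800 CPM in the control mice, with all 10 at a fitted value below 0 (median log2 fold change -0.22). Of the 6 slow fibre markers, 5 had fitted values above 0 (median log2 fold change 0.46), and their sums of 426 to 915.1 CPM in the mAktDKO mice and 363.3 to 580.5 CPM in the control mice overlapped. Over all 12892 tested genes, 6762 (52.45%) had fitted values above 0 and 6130 below. The groups did not overlap, with mAktDKO lower, for 6 of the 10 fast fibre markers, beside 16.6% of all tested genes. They overlapped for all 6 slow fibre markers. At an unadjusted p under 0.05 with edgeR, 4 fast fibre markers were lower and 2 slow fibre markers higher. Of all 12892 tested genes, 1693 were lower and 1471 higher at this p, 24.5% in both directions together. None of the markers of either list passed an adjusted p under 0.05 with edgeR, and the part of fibre type in the level of Aldh1a1 was not tested.

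**Figure D1:**
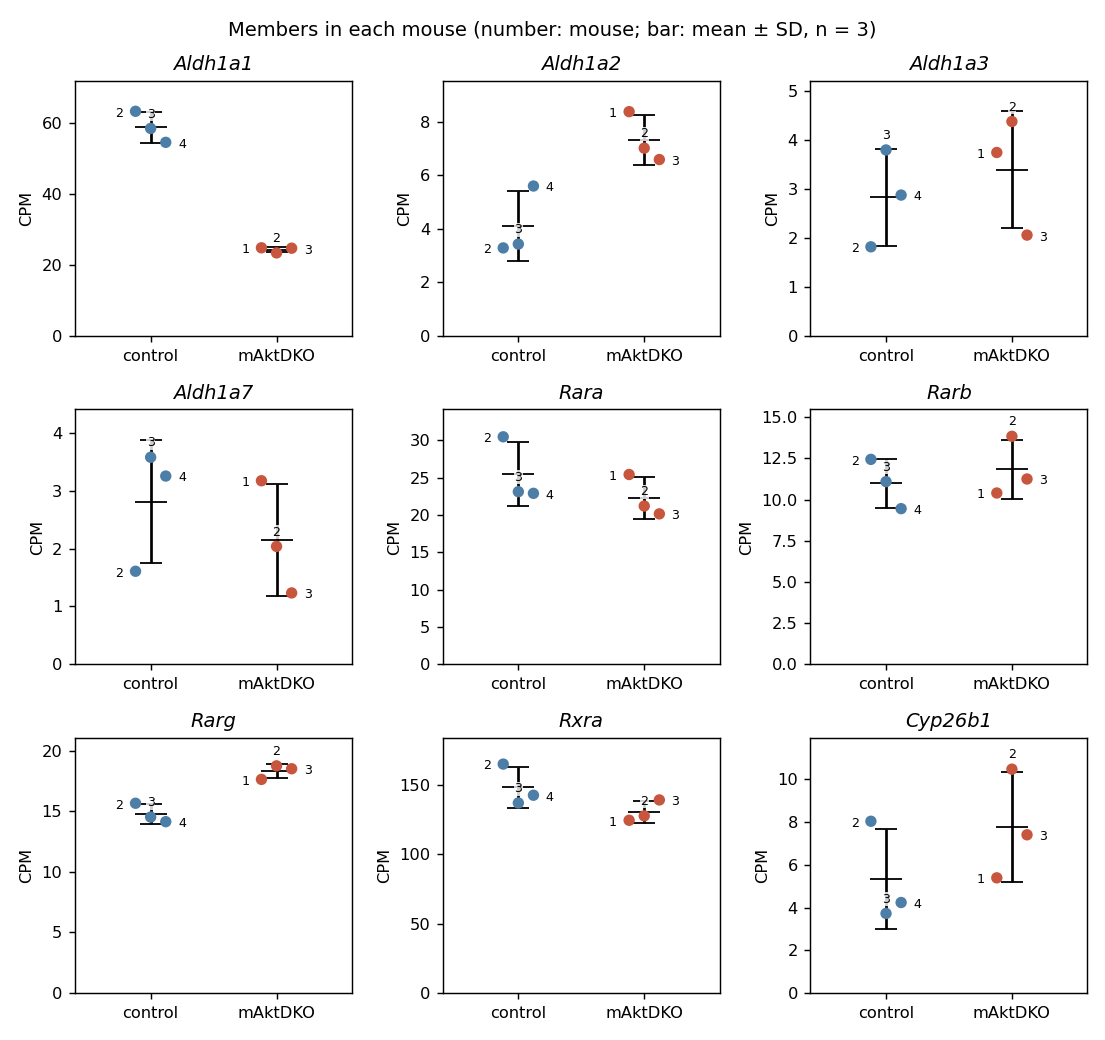
Level of each of the 9 genes in CPM (linear axis from 0, own scale in each panel) by genotype, with a numbered point for each mouse and bars for the mean ± SD of 3 mice. The groups of Aldh1a1 are separated with mAktDKO lower, those of Aldh1a2 and Rarg with mAktDKO higher, and those of the other 6 genes overlap.

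Aldh1a7 is the rodent copy of Aldh1a1, on the opposite strand of chromosome 19, from 20692953 to 20727562 (ENSMUSG00000024747.3), and is known to handle aldehydes other than retinaldehyde. It had 3.17, 2.04 and 1.23 CPM in mAktDKO mice, compared with 1.61, 3.58 and 3.25 CPM in controls. The groups overlapped, with the lowest value in mAktDKO mouse 3 and the highest in control mouse 3 (log2 fold change -0.38, standard error 0.39). Leaving out one mouse moved the value to -0.76 without mAktDKO mouse 1, -0.66 without control mouse 2, -0.12 without mAktDKO mouse 3 and -0.17 without control mouse 3.

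Because of the shared stretches, RSEM divided reads between Aldh1a1 and Aldh1a7. The estimated counts of either gene were not whole numbers in all 6 mice, while their sum was whole in each (to within 0.005), at 442, 425 and 379 in the mAktDKO mice and 929, 851 and 765 in the control mice. Aldh1a7 took between 2.5% and 11.4% of that sum. With the counts of both added up, the log2 fold change was -1.22, against -1.27 for Aldh1a1 alone.

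Aldh1a2 differed in the opposite direction. It encodes the retinaldehyde dehydrogenase that supplies most retinoic acid in the embryo, and lies on chromosome 9 from 71215789 to 71296243 (plus strand, ENSMUSG00000013584.5). The level was 8.37, 7.01 and 6.58 CPM in mAktDKO mice, compared with 3.29, 3.43 and 5.6 CPM in controls. The groups did not overlap, but control mouse 4 came closer to the mAktDKO mice than to the other control mice. Averages of 7.32 ± 0.93 and 4.1 ± 1.29 CPM (SD, n = 3 each) gave a log2 fold change of 0.84 (standard error 0.22), which was 1.12 without control mouse 4 and 0.70 without control mouse 2.

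Markers of the cells between the fibres were examined beside Aldh1a2, and none of those below passed an adjusted p under 0.05 with edgeR. All 10 fibroblast markers had fitted values above 0 (median log2 fold change 0.37), with sums of 18650 to 22070 CPM in the mAktDKO mice and 7537 to 18710 CPM in the control mice. All 6 tenocyte markers did too (median 0.40), with sums of 1233 to 1775 CPM and 943.4 to 1274 CPM. All 7 adipocyte markers (median 1.00) had sums of 58.6 to 184.6 CPM and 49.3 to 106.2 CPM, and all 8 macrophage and leukocyte markers (median 0.45) had sums of 100.6 to 128.4 CPM and 62.3 to 106.9 CPM. Of the other lists, 6 of 8 endothelial (median 0.10), 4 of 7 mural (median 0.045), 5 of 6 satellite cell (median 0.17) and 5 of 6 Schwann cell markers (median 0.26) had fitted values above 0. Over all tested genes, 52.45% did. The groups did not overlap, with mAktDKO higher, for 2 of 10 fibroblast, 3 of 6 tenocyte, 3 of 8 macrophage and leukocyte, 2 of 7 mural, 2 of 6 satellite cell and 2 of 6 Schwann cell markers and for none of the adipocyte or endothelial markers, beside 14.6% of all tested genes. At an unadjusted p under 0.05 with edgeR, 5 of 7 adipocyte, 4 of 10 fibroblast, 3 of 6 tenocyte and 3 of 8 macrophage and leukocyte markers were higher. So were 2 of 8 endothelial, 1 of 7 mural, 1 of 6 satellite cell and 2 of 6 Schwann cell markers, beside 24.5% of all tested genes in both directions. Of all 12892 tested genes, 1471 were higher at this p. Control mouse 4, with the highest Aldh1a2 of the controls, had the highest of their sums for the fibroblast, tenocyte, adipocyte and Schwann cell lists and not for the other 4. Among the mAktDKO mice, Aldh1a2 and the macrophage, endothelial, mural and Schwann cell sums were highest in mouse 1 and lowest in mouse 3, and the other 4 sums were not. No marker of these 8 lists was at 0 in a whole group, and the part of these cells in the level of Aldh1a2 was not tested.

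Aldh1a3 encodes the third enzyme that makes retinoic acid and lies on the minus strand of chromosome 7, from 66390890 to 66427517 (ENSMUSG00000015134.15). It had 3.74, 4.37 and 2.06 CPM in mAktDKO mice, compared with 1.82, 3.79 and 2.87 CPM in controls. The groups overlapped, and the log2 fold change of 0.27 (standard error 0.34) was 0.031 without control mouse 2, 0.044 without mAktDKO mouse 2, 0.51 without mAktDKO mouse 3 and 0.54 without control mouse 3.

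Added over the 4 Aldh1a genes, the level was 40.1, 36.8 and 34.6 CPM in mAktDKO mice, compared with 70.05, 69.3 and 66.3 CPM in controls, a ratio of 0.543 between the means of 37.2 ± 2.77 and 68.6 ± 1.98 (SD, n = 3 each). To compare genes with each other, CPM was divided by the kilobases of exon of each gene in GENCODE M21. On this scale Aldh1a1 made up 86.5 ± 4.06% of the family in the control mice and 67.1 ± 4.70% in the mAktDKO mice (SD, n = 3 each). Aldh1a2 made up 6.43 ± 2.22% and 21.2 ± 1.12%. There was 18.2, 16.1 and 9.22 times as much Aldh1a1 as Aldh1a2 per length in control mice 2 to 4, and 2.81, 3.16 and 3.56 times as much in mAktDKO mice 1 to 3. Aldh1a1 thus stayed the most abundant of the 4 transcripts in every mouse, and Aldh1a2 was the next in all 3 mAktDKO mice and in control mice 2 and 4, behind Aldh1a7 in control mouse 3.

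**Figure D2:**
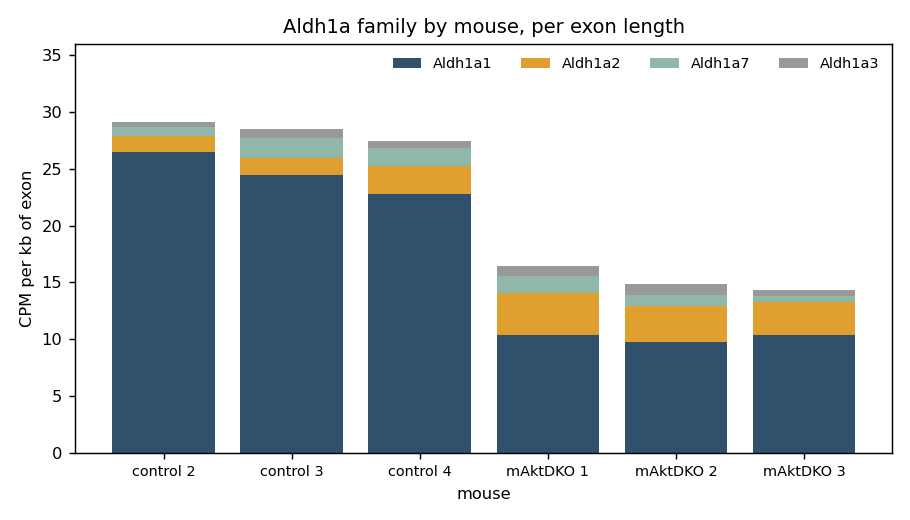
Stacked bars of the 4 Aldh1a genes in each mouse, in CPM per kb of exon (linear axis from 0). The bars reach 27.5 to 29.1 in the control mice and 14.3 to 16.5 in the mAktDKO mice, with a smaller Aldh1a1 part and a larger Aldh1a2 part in the latter.

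Of the receptors, Rarg was higher in all 3 mAktDKO mice. Rarg, a retinoic acid receptor on chromosome 15 from 102234938 to 102257517 (minus strand, ENSMUSG00000001288.15), had 17.6, 18.8 and 18.5 CPM in mAktDKO mice, compared with 15.7, 14.5 and 14.1 CPM in controls. The groups did not overlap, with means of 18.3 ± 0.59 and 14.8 ± 0.79 CPM (SD, n = 3 each) and a log2 fold change of 0.31 (standard error 0.094). It was 0.45 when the counts were scaled by library totals alone, a scaling that moved the median of all genes from 0.017 to 0.16.

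Rara, on chromosome 11 from 98927818 to 98974942 (plus strand, ENSMUSG00000037992.16), encodes a second receptor for retinoic acid and had 25.4, 21.2 and 20.2 CPM in mAktDKO mice, compared with 30.5, 23.1 and 22.9 CPM in controls. The groups overlapped, with control mouse 2 the highest of all (log2 fold change -0.20, standard error 0.14). The value was -0.049 without that mouse and -0.30 without mAktDKO mouse 1. Rarb, on chromosome 14 from 16430839 to 16819156 (minus strand, ENSMUSG00000017491.9), is a retinoic acid receptor whose own gene is known to respond to retinoic acid. It had 10.4, 13.8 and 11.3 CPM in mAktDKO mice, compared with 12.4, 11.1 and 9.45 CPM in controls, which overlapped, and its log2 fold change of 0.11 (standard error 0.15) lay at -0.024 without mAktDKO mouse 2, 0.0066 without control mouse 4, 0.19 without mAktDKO mouse 1 and 0.20 without control mouse 2. Top2b overlaps Rarb on the other strand and had 98.7 to 124.6 CPM over the 6 mice. The libraries keep the strand, but whether the counting used it is not given in the sources used here. The estimated counts of Rarb and Top2b were whole numbers in all 6 mice, unlike those of Aldh1a1 and Aldh1a7. How reads of this overlap were assigned was not tested.

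Rxra, the common partner of the RAR proteins, lies on the plus strand of chromosome 2 from 27676440 to 27762957 (ENSMUSG00000015846.14). It had 124.7, 127.9 and 139.4 CPM in mAktDKO mice, compared with 165.3, 137.2 and 142.8 CPM in controls. Only mAktDKO mouse 3 and control mouse 3 lay out of order, and the log2 fold change was -0.18 (standard error 0.094), -0.047 with library totals and -0.10 without control mouse 2. Measured per length, Rxra was the most abundant of the 9 genes in both groups, at 29.1 and 25.6 CPM per kb in control and mAktDKO mice.

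Of the other RXR genes, Rxrg, the form known to be enriched in skeletal muscle, was the retinoid gene outside these 9 with the smallest p. It had 24.9, 21.2 and 23.4 CPM in mAktDKO mice, compared with 36.4, 33.4 and 34.0 CPM in controls, with no overlap. It fell at an adjusted p under 0.05 and not at the study's 0.01 (log2 fold change -0.58, standard error 0.093, adjusted p = 0.0394 by edgeR's quasi-likelihood test), a threshold that 1.18% of all tested genes met. The adjusted p rose to 0.0563 with library totals, 0.0967, 0.214 and 0.115 without mAktDKO mice 1, 2 and 3, and 0.0842 without control mouse 3, while over those fits the log2 fold change stayed between -0.63 and -0.44. With DESeq2's Wald test the adjusted p of Rxrg was 0.000968, under the study's 0.01. It was under 0.01 for 338 of the 17357 genes with a p-value, not all of which had an adjusted p. Rxrb, the remaining RXR gene, named after its values were seen, had 22.7, 24.0 and 24.3 CPM against 33.6, 26.9 and 24.4 CPM, with no overlap (log2 fold change -0.26, adjusted p = 0.23 by edgeR). Per length, Rxrg made up 28.02% of the RXR transcripts in the control mice and 23.02% in the mAktDKO mice.

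**Figure D3:**
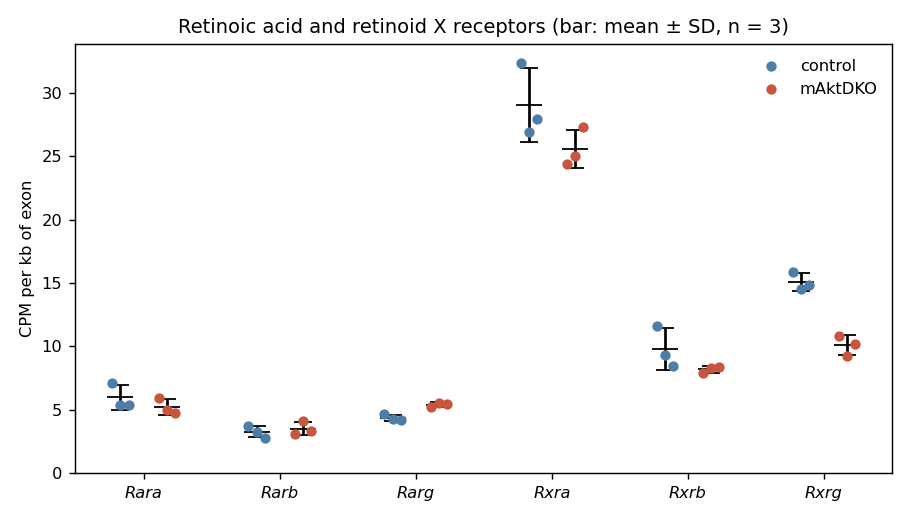
Level per exon length (CPM per kb, linear axis from 0) of the 3 retinoic acid receptor genes and the 3 retinoid X receptor genes, with a point for each mouse and bars for the mean ± SD of 3 mice. Rxrg lies at 14.6 to 15.9 in the control mice and 9.23 to 10.9 in the mAktDKO mice, Rxrb at 8.42 to 11.6 and 7.85 to 8.4, and the groups of Rara, Rarb and Rxra overlap.

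Cyp26b1, an enzyme that breaks down retinoic acid, lies on the minus strand of chromosome 6 from 84571414 to 84593908 (ENSMUSG00000063415.12). It was among the most variable of the 9 genes, with 5.39, 10.5 and 7.41 CPM in mAktDKO mice, compared with 8.04, 3.72 and 4.23 CPM in controls. Control mouse 2 lay above 2 of the 3 mAktDKO mice, and the log2 fold change of 0.54 (standard error 0.32) was 0.97 without that mouse, 0.33 without control mouse 3 and 0.26 without mAktDKO mouse 2. Cyp26a1, the related enzyme whose gene is a textbook target of retinoic acid, had 1.46, 2.28 and 1.37 CPM in mAktDKO mice, compared with 0.629, 0.438 and 0.907 CPM in controls. These are 20 to 38 counts in the former and 6 to 12 counts in the latter, and the groups did not overlap. The log2 fold change of 1.37 (standard error 0.37) did not pass the test (adjusted p = 0.0833 by edgeR's quasi-likelihood test), nor in any alternative that gave it an adjusted p (0.0718 to 0.325).

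Of the 9 genes, 5 had fitted values above 0 and 4 below, beside 52.45% of all tested genes above 0. Their median log2 fold change was 0.11 beside 0.017 over all tested genes. That median was -0.024 without mAktDKO mouse 2, with 4 of the 9 above 0, and 0.19 without mAktDKO mouse 1. The groups did not overlap with mAktDKO higher for 2 genes, Aldh1a2 and Rarg, and with mAktDKO lower for 1, Aldh1a1. Over all tested genes this held for 14.6% in the higher and 16.6% in the lower direction. As the contrast was used to pick the genes, nothing is read from these counts.

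The order of the levels per length put Rxra first in the control mice, followed by Aldh1a1 at 24.6, Rara at 5.96, Rarg at 4.35, Rarb at 3.24, Aldh1a2 at 1.81, Aldh1a7 at 1.36, Cyp26b1 at 0.996 and Aldh1a3 at 0.638 CPM per kb. In the control mice the ranges of neighbours were separate down to Aldh1a2, and those of Aldh1a2 and Aldh1a7, of Aldh1a7 and Cyp26b1, and of Cyp26b1 and Aldh1a3 overlapped. In the mAktDKO mice, Aldh1a1 was still the second at 10.2 CPM per kb, apart from its neighbours. Rarg at 5.39 and Rara at 5.20 overlapped there, as did Rarb at 3.49 and Aldh1a2 at 3.23. Cyp26b1, Aldh1a7 and Aldh1a3 were the lowest in both groups.

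The genes whose pattern over the 6 mice was most like that of Aldh1a1 were found by the root mean square difference of mean-centred log2 CPM among 12891 genes. They were Grb14 (0.10), which encodes an adaptor that restrains the insulin receptor, 0610040J01Rik (0.15), Akt2 (0.16), Nt5c1a (0.16), a nucleotidase acting on AMP, and Crybb1 (0.16), a crystallin gene with only 4 to 15 counts. Grb14 had 6.34, 5.63 and 6.72 CPM in mAktDKO mice, compared with 17.97, 17.8 and 15.4 CPM in controls, so that like Aldh1a1 its groups were far apart and narrow. With 6 points in 2 groups, this measure mostly reflects the size of the genotype difference. None of the other 8 retinoid genes stood near Aldh1a1. The nearest were Rxra at rank 2604 and Rara at rank 2788, and Aldh1a2 was at rank 12468.

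Of 68 other genes of retinoid uptake, storage, conversion, synthesis, clearance, reception and response, 43 could be tested and 8 had no count in any mouse. None passed an adjusted p under 0.01 by edgeR's quasi-likelihood test (2 did with DESeq2, Lpl and Rxrg), and Rxrg alone passed 0.05. With library totals Rxrg did not, and Lpl, Ncoa1 and Ncoa2 did. At an unadjusted p under 0.05 there were 18, 13 higher and 5 lower in mAktDKO mice, 41.9% of the 43 beside 24.5% of all tested genes. Fitted values were above 0 for 31 of the 43 and below for 12, with a median log2 fold change of 0.20 against 0.017 for all tested genes. The share above 0 was 72.09% of the 43, beside 52.45% of all tested genes. With library totals 33 were above 0, and relative to the median of all genes 30 were higher with either scaling. The part of the fibroblast, tenocyte, adipocyte and macrophage markers given above in these values was not tested. The list was chosen with earlier results of these data known, so nothing is read from these shares.

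Over all tested genes, 52.45% had fitted values above 0 and 24.5% were at an unadjusted p under 0.05 with edgeR. Among the 6 tested genes of uptake and binding, 5 had fitted values above 0 and none passed either threshold with edgeR, with 2 at an unadjusted p under 0.05 and 1, Fabp5, past 0.05 with DESeq2. The smallest p was that of Fabp5, a carrier of fatty acids and retinoic acid, with 13.2, 13.4 and 11.3 CPM in mAktDKO mice, compared with 6.71, 9.41 and 9.22 CPM in controls (log2 fold change 0.58, adjusted p = 0.0761 by edgeR). All 4 tested genes of ester storage and cleavage had fitted values above 0, and 2 were at an unadjusted p under 0.05. Lpl, the lipase that releases fatty acids and can hydrolyse retinyl esters in lipoproteins, had 884.7, 998.9 and 880.8 CPM in mAktDKO mice, compared with 721.8, 615.4 and 555.6 CPM in controls. Its groups did not overlap, and its log2 fold change of 0.55 came just short of the second threshold (adjusted p = 0.054 by edgeR). It passed 0.05 in 6 of the alternatives, among them limma voom at 0.0493 and library totals at 0.042.

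Of the 9 tested enzymes that convert retinol and retinaldehyde into each other, 5 had fitted values above 0 and 4 below, and none passed with edgeR, DESeq2 or limma voom (4 at an unadjusted p under 0.05 with edgeR). The shares over all tested genes were 52.45% above 0 and 24.5% at that unadjusted p. Dhrs3, which reduces retinaldehyde back to retinol, had 29.2, 38.7 and 32.6 CPM in mAktDKO mice, compared with 28.5, 22.9 and 24.1 CPM in controls (log2 fold change 0.41, adjusted p = 0.106 by edgeR). Adh5, the most abundant enzyme of this group, had 42.4, 37.8 and 40.0 CPM and 50.1, 48.5 and 41.0 CPM (log2 fold change -0.22, adjusted p = 0.212 by edgeR). Its log2 fold change was -0.078 with library totals. Cyp1b1, a cytochrome able to make retinoic acid, had 1.03 to 2.1 CPM and 0.839 to 3.78 CPM, which overlapped.

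Of the 11 receptor coregulators, 8 had fitted values above 0 and none passed with edgeR and TMM, with 5 at an unadjusted p under 0.05. Ncoa2 passed 0.05 with DESeq2, and with library totals Ncoa1 and Ncoa2 did and 9 had fitted values above 0. Ncoa2, a coactivator of nuclear receptors, had 57.7, 68.5 and 66.0 CPM in mAktDKO mice, compared with 48.6, 52.4 and 47.3 CPM in controls (log2 fold change 0.37, adjusted p = 0.0684 by edgeR). The corepressor Ncor1 had 191.5 to 223.3 CPM and 188.8 to 205.9 CPM, which overlapped. Of the 9 tested genes known to respond to retinoic acid, 8 had fitted values above 0 (7 with limma voom, 9 with library totals, 6 without mAktDKO mouse 1). None of them passed with edgeR, DESeq2 or limma voom (3 at an unadjusted p under 0.05 with edgeR). Beside the coregulators and these genes, 52.45% of all tested genes were above 0 and 24.5% were at that unadjusted p. Thbd, the gene of the endothelial protein thrombomodulin, had 56.4, 48.2 and 52.2 CPM against 29.9, 44.9 and 43.1 CPM (log2 fold change 0.41, adjusted p = 0.14 by edgeR, and 0.25 for the fold change without control mouse 2), and the clock-related repressor gene Bhlhe40 had 87.2 to 91.9 CPM against 70.5 to 113.2 CPM.

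**Figure D4:**
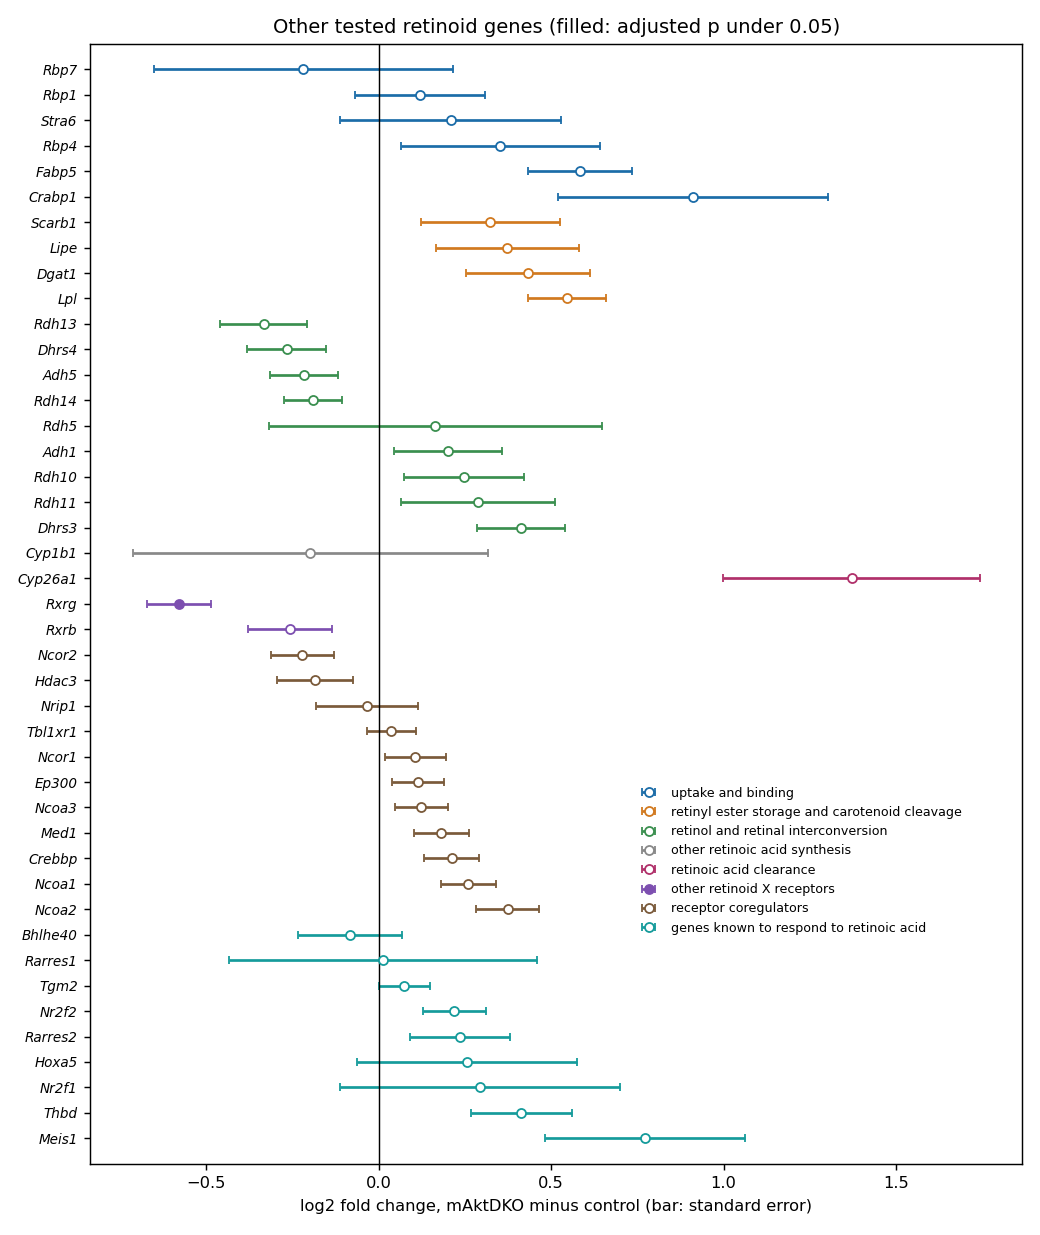
Log2 fold change (mAktDKO minus control) of the 43 other retinoid genes tested, grouped and coloured by role, with bars for the standard error and a filled point for an adjusted p under 0.05. Rxrg is the filled point at -0.58, Cyp26a1 lies farthest to the right at 1.37, and 31 of the points lie right of 0. Over all tested genes, 52.45% had values above 0.

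Of 13 other aldehyde dehydrogenases tested, 8 had fitted values above 0, 5 below (9 and 4 with library totals) and none passed with edgeR, DESeq2 or limma voom (3 at an unadjusted p under 0.05 with edgeR). In the edgeR fit without control mouse 4, 1 of them, Aldh18a1, passed an adjusted p under 0.05. Aldh6a1, a mitochondrial enzyme of valine breakdown and the most abundant of them, had 192.2, 198.3 and 233.6 CPM in mAktDKO mice, compared with 190.0, 162.5 and 182.3 CPM in controls (adjusted p = 0.215 by edgeR), and Aldh9a1 had the smallest p (log2 fold change 0.39, adjusted p = 0.154 by edgeR). Of 10 tested nuclear receptors that pair with RXR, 5 had fitted values above 0 and 5 below, or 7 and 3 with library totals, and none passed with any of the 3 tools (1 at an unadjusted p under 0.05 with edgeR). The smallest p was that of Thra, a thyroid hormone receptor gene, with 53.6, 55.7 and 54.1 CPM against 67.4, 62.7 and 60.8 CPM (log2 fold change -0.22, adjusted p = 0.13 by edgeR). With library totals the log2 fold change of Thra was -0.084. Nr4a1, an orphan receptor gene induced by exercise, had 162.5 to 250.1 CPM against 160.2 to 208.4 CPM. Beside the aldehyde dehydrogenases and these receptors, 52.45% of all tested genes were above 0 and 24.5% were at an unadjusted p under 0.05 with edgeR.

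Promoters of the retinoid genes were searched for direct repeats of the hexamer AGGTCA or of its variants AGTTCA, or alternatively GGGTCA, or alternatively GGTTCA, in any combination and on both strands, in RefSeq windows of 300 bases (GRCm38.p6, 250 before to 50 after the start). The tables held 14 windows for 8 of the 9 genes. A repeat with 5 bases between the hexamers, the spacing that RAR and RXR pairs are known to prefer, was found in 1 of the 14, that of Rarb, and in 32 of all 32851 windows (0.0974%). Outside the 9 genes it was also found in Cyp26a1. Both windows are shown because they hold the repeat in a gene whose levels are given here, each along its own gene's strand with the repeat in capitals. The Rarb window is chr14:16575427-16575726 on the minus strand and the Cyp26a1 window is chr19:37697558-37697857 on the plus strand.
Rarb: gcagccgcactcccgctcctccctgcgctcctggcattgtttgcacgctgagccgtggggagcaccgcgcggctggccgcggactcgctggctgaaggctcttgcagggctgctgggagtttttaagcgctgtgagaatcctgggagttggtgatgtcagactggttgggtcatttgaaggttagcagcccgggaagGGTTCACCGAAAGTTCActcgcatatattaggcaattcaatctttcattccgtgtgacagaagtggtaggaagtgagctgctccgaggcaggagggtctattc
Cyp26a1: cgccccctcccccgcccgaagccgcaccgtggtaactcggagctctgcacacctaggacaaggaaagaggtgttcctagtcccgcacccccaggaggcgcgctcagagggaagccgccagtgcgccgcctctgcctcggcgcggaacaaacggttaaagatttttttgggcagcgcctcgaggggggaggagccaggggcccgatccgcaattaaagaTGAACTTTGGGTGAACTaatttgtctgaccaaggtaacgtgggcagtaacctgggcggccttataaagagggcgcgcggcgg
In Rarb the repeat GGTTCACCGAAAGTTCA lay from -53 to -37 of the start on the gene's strand, and in Cyp26a1 the repeat read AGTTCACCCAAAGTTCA on the opposite strand, from -32 to -16. Of these 2 genes, Cyp26a1 did not pass the test and Rarb is described without one. A repeat with 1 or 2 bases between the hexamers, in 0.222% and 0.268% of all windows, and the forkhead motif GTAAACA, in 3.65%, were in none of the 14. A match describes letters in this window and not binding.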

How the data were processed

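The authors sequenced EDL RNA of 3 mAktDKO and 3 control floxed mice, after rRNA removal, as strand-specific libraries (paired reads of 37 bases), which were mapped to mm10 with STAR (2.6.1b in the submitters' processing notes, a slightly later version in the methods) and counted with RSEM 1.3.1. Their own test was DESeq2. The deposited values are estimated counts (expected counts) per gene, not scaled between mice. Here they were rounded. In R 4.3.3, edgeR 4.0.16 removed low genes (filterByExpr, minimum count 10), computed TMM factors and gave quasi-likelihood p-values, adjusted by Benjamini-Hochberg over all 12892 genes, with thresholds of 0.01 (the study's) and 0.05. The standard error is the log2 fold change divided by the square root of F, and log2 CPM used a prior count of 2. The fitting step was tested on simulated data. Alternatives were DESeq2 1.42.0, limma 3.58.1, other scalings and filters, and leaving out each mouse.

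Members and lists were chosen with earlier results of these data known. Named genes are the members, Akt1 and Akt2, in each role the genes at an adjusted p under 0.05, the one with the smallest p and the most abundant one, the 5 genes most like Aldh1a1, and markers at 0 in a group. Exon lengths, coordinates and coding sequences came from GENCODE M21, aligned with Biopython 1.88. Each list was fitted within the whole table.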

Additional observations from a re-analysis of the deposited data

How the results depend on the processing

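No paired analysis was possible because the numbers of the controls in the table (2 to 4) are not those of their labels (1 to 3), and no number ties a control to an mAktDKO mouse. The number of genes at an adjusted p under 0.01 was 3 of 12892 with edgeR and any of the scalings, and also with limma voom. It was 152 at an adjusted p under 0.05, 32 of 17360 genes with no filter, and 338 of 17357 genes with DESeq2's Wald test (90 higher, 248 lower), and the cause was not tested. The 17357 are the genes with a p-value from DESeq2, and not all of them had an adjusted p. The number of genes at an adjusted p under 0.01 ranged from 0 to 8 when each mouse was left out. It was 0 without mAktDKO mouse 1, 2 or 3 (2441, 1871 and 2794 genes at an unadjusted p under 0.05) and 8 without control mouse 2. Of the other retinoid genes, 0 were called with edgeR, 1 at an adjusted p under 0.05 and 2 with DESeq2. Of the genes at an unadjusted p under 0.05, 46.5% were higher with TMM and 82.1% with library totals.

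The values of the 9 genes moved by less than the spread between mice in 124 of 127 comparisons with an alternative. The exceptions were all with library totals, where Aldh1a1 was at -1.13, Rarg at 0.45 and Rxra at -0.047. Leaving out 1 of 3 mice can hardly move a mean by more than that spread, so those comparisons say nothing about stability. Over the mice left out, Aldh1a3 ranged from 0.031 to 0.54, Cyp26b1 from 0.26 to 0.97 and Rarb from -0.024 to 0.20. Aldh1a1 was at -1.29, -1.24 and -1.30 without mAktDKO mouse 1, 2 and 3. Genes near 0 changed sign. Bhlhe40 was at 0.060 with library totals and 0.066 without control mouse 2 (-0.26 to 0.066 over the mice left out). Cyp1b1 was at 0.025 with limma voom, 0.042 without mAktDKO mouse 3 and 0.61 without control mouse 4 (-0.57 to 0.61). Nr4a1 was at -0.16 without mAktDKO mouse 3 and -0.044 without control mouse 2 (-0.16 to 0.18). The lowest genes, such as Cyp26a1 at 6 to 38 counts, rest on few counts, and the part of depth in their results was not tested.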

Other observations

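Of the marker genes examined beside the retinoid genes, Hbb-bs, a beta globin gene of erythrocytes, had 0 counts in all 3 control mice and 370.12, 153.73 and 146.44 estimated counts in the mAktDKO mice (adjusted p = 0.018 by edgeR's quasi-likelihood test). Its near-identical neighbour Hbb-bt had 142.48 to 363.63 estimated counts in the mAktDKO mice and 119.2 to 189.47 in the control mice. How RSEM divided reads between the 2 genes was not tested.

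C730002L08Rik, a transcript annotated on the strand opposite to Aldh1a1, was listed at 0 counts in every mouse.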
